A study of Mus musculus with 24 samples.

Results

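The response of dendritic cells to lipopolysaccharide (LPS) was compared between mice labelled C57 and mice labelled B6, gene by gene. The quantity is a difference of differences. The change from untreated to LPS-treated cells was taken in each strain, and the change in B6 was subtracted from the change in C57. It used 16 of the 24 libraries of the series, 4 in each of 4 groups, and it was computed for each of the 13246 genes tested among 55291 symbols in the table. A positive difference can come from a larger rise in C57, a smaller fall in C57, or opposite directions in the strains, and these were kept apart.

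Dendritic cells sample their surroundings, and on meeting bacterial products they secrete cytokines, present antigen and leave the resting state. LPS, the outer membrane glycolipid of Gram-negative bacteria, is bound by CD14 and by TLR4 with MD-2, and TLR4 signals through MyD88 and TRIF to NF-kB, the MAP kinases and interferon regulatory factors. Early after LPS, cells of this kind induce genes for cytokines, chemokines and inducible nitric oxide synthase, and they lower the expression of genes that serve growth and division.

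Cells were grown from bone marrow for 7 days with the growth factor GM-CSF at 20 ng/ml, a culture known to hold both dendritic cells and macrophage-like cells, and then left untreated or given LPS of E. coli 0111:B4 at 10 ng/ml for 6 hours. The groups were B6 untreated, B6 with LPS, C57 untreated and C57 with LPS. The design text describes separate cultures, each from 1 mouse, with 4 mice per genotype. How C57 differs from B6, the age of the mice and any allele they carry are not stated in the labels used here. Total RNA was sequenced in bulk with a stranded kit, and the deposited unit is TPM, a length-scaled share of transcripts in which every library sums to 1000000, so the depth of the libraries is unknown. A bulk level cannot tell fewer cells of a type from less RNA per cell.

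Values below are TPM per library, means ± SD over 4 libraries of a group, and differences on the scale of log2(TPM + 1). Each difference was tested with limma, and a gene was called at an adjusted p under 0.05 (Benjamini-Hochberg, all 13246 genes). In the C57 minus B6 difference 1896 genes were called, 14.3% of those tested, 1447 of them higher in C57 (10.9%) and 449 lower (3.39%). An absolute difference of 1 or more was called for 229 genes (1.73%), 160 higher and 69 lower. The 4 responses of one strain lay wholly outside the 4 of the other for 2621 genes (19.8%), among them 1660 of those called.

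The split between higher and lower depended on the scaling. With TPM as deposited, the median difference of all genes tested was 0.12, and 76.3% of called genes were higher. With median-of-ratios scaling, which sets each library by its typical gene, the median was −0.02, and 3379 genes were called, 1400 higher and 1979 lower, 41.4% higher. List counts under that scaling are to be read beside these 1400 and 1979 of the 13246 genes tested. With quantile normalization the median was 0.01, and 1448 were higher and 1243 lower, 53.8% higher. The same difference in the same direction was called with TPM, with the mouse as a block and with median-of-ratios scaling for 1151 genes higher in C57 (8.69%) and 427 lower (3.22%), and these 1578 genes are called stable below. Median-of-ratios scaling lowered the median difference, so lower calls reached this label more easily. It kept 427 of 449 lower calls and 1151 of 1447 higher ones.

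The responses from which the difference was made were themselves uneven. In B6, LPS raised 1575 genes (11.9%) and lowered 7905 (59.7%), with a median over all genes of −0.43. In C57 it raised 1371 (10.4%) and lowered 6908 (52.2%), with a median of −0.32. Under median-of-ratios scaling the B6 counts became 4128 higher and 4025 lower, and the C57 counts 3291 higher and 3494 lower. Before LPS the strains differed in 38.8% of genes, and after LPS in 58.8%.

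By the calls of both responses, the largest class was a smaller fall in C57, with 977 genes. A fall called in B6 alone held 346, a smaller rise in C57 held 196 and a rise called in B6 alone held 153. Larger rises in C57 were fewer, 38 genes, and a rise called in C57 alone held 60, as did a fall called in C57 alone. Larger falls numbered 17, and 1 gene had neither response called. Opposite directions were called for 48 genes, 25 of them higher with LPS in C57 and lower in B6, and 23 the reverse. All 196 smaller rises were called in the same class with median-of-ratios scaling, but only 578 of the 977 smaller falls, 29 of the 38 larger rises and 10 of the 48 opposite directions were. With the same scaling 6 of the 17 larger falls kept their class. So did 100 of the 346 falls and 53 of the 153 rises called in B6 alone. For C57 alone, 7 of the 60 rises and 8 of the 60 falls did. That scaling moved the median response of B6 from −0.43 to 0.00.

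**Figure D1:**
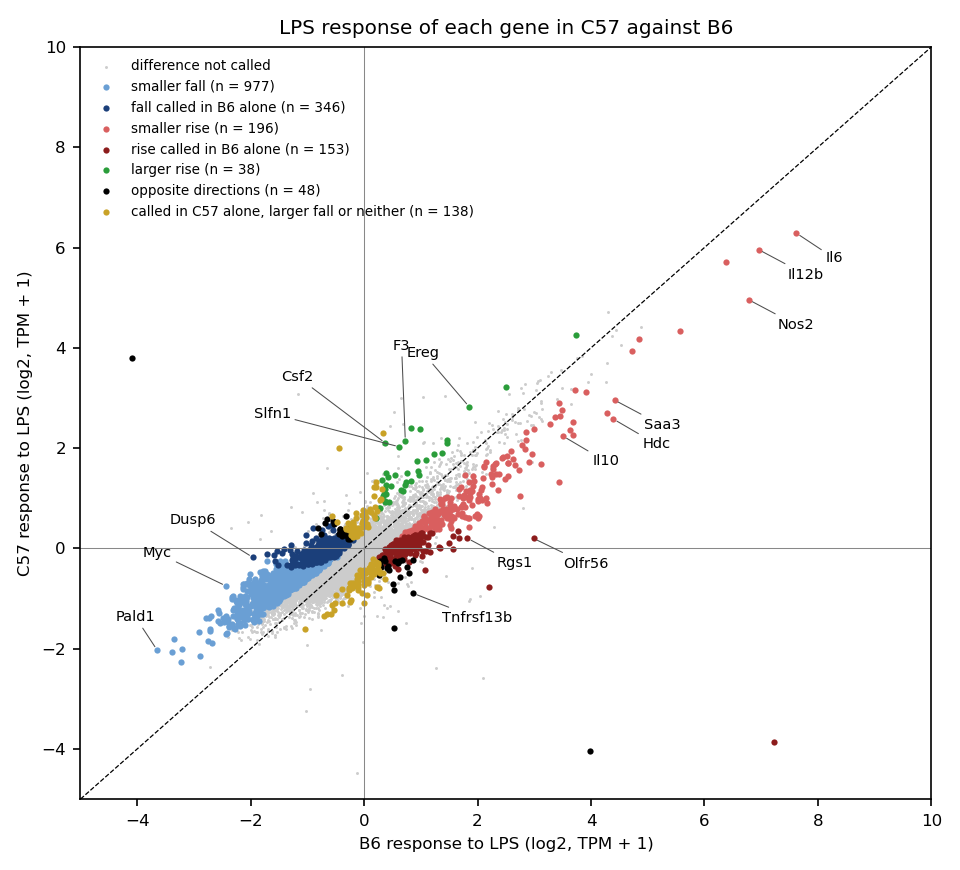
LPS response of each of the 13246 genes in C57 (vertical axis) against B6 (horizontal axis), both on the scale of log2(TPM + 1), with 1 point per gene, colours for the classes of the 1896 called genes and a dashed line where the responses are equal. Most called genes lie nearer to zero on the C57 axis than on the B6 axis, above the line where B6 fell and below it where B6 rose.

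**Figure D2:**
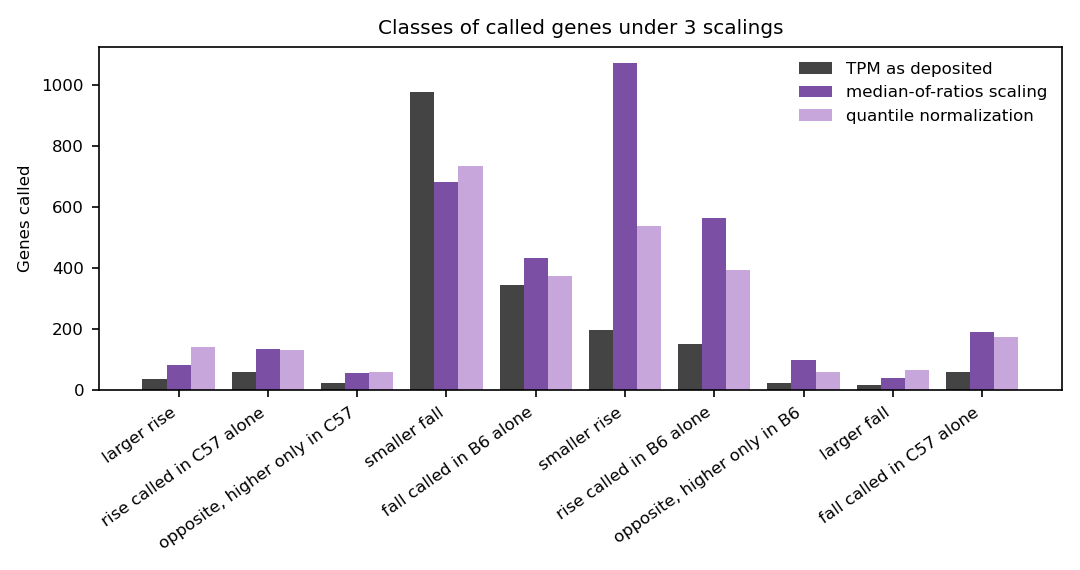
Number of called genes (vertical axis) in each class of the difference (horizontal axis), with TPM as deposited, with median-of-ratios scaling and with quantile normalization. Smaller falls number 977 with TPM and 684 with median-of-ratios scaling, while smaller rises number 196 and 1072.

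Among genes that rose in both strains, several leading products of activated dendritic cells rose less in C57. Nos2 (chr11:78920787-78960254, plus strand on mm10), the inducible nitric oxide synthase, had the largest difference of the genes named in that class. In untreated B6 cells Nos2 stood at 0.645, 0.746, 0.427 and 0.42 TPM, and after LPS at 148, 185, 179 and 171 TPM. In C57 the values were 0.979, 1.64, 1.64 and 1.09 TPM without LPS and 58.7, 81.6, 77.4 and 68.8 TPM with it. The LPS libraries of the strains did not overlap. Untreated libraries did not overlap either, with C57 higher, and all were under 2 TPM. The C57 minus B6 level was 0.578 before LPS (limma, adjusted p = 4.7e-04) and −1.245 after it, so part of the difference lay in these low untreated values. The response was 6.78 in B6 and 4.96 in C57, a difference of −1.82 ± 0.17 (SE, limma, adjusted p = 2.1e-07). Hdc (chr2:126593667-126619299, minus strand), the enzyme that makes histamine, rose from 3.18 ± 0.661 to 86.1 ± 6.35 TPM in B6 and from 4.55 ± 0.608 to 32.3 ± 4.38 TPM in C57, a difference of −1.82 ± 0.24 (SE, limma, adjusted p = 1.3e-05).

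The cytokine genes of this class differed in where the gap arose. In untreated B6 cells Il6 stood at 4.01, 2.57, 4 and 4.42 TPM, and after LPS at 876, 663, 1113 and 1119 TPM. In C57 the values were 8.77, 15.4, 10.4 and 8.89 TPM without LPS and 783, 887, 1013 and 953 TPM with it. Il6 (chr5:30013114-30019981, plus strand) encodes interleukin 6, a driver of the acute phase response. Its LPS levels overlapped between strains, and the C57 minus B6 level was −0.03 after LPS and 1.30 before it, so the difference of −1.33 ± 0.23 (SE, limma, adjusted p = 4.2e-04) lay in the untreated cells. Il10 (chr1:131019845-131024974, plus strand), the gene of the anti-inflammatory interleukin 10, was near 0 in every untreated library. After LPS it reached 11.1, 18.1, 8.43 and 9.4 TPM in B6 and 4.04, 3.42, 4.57 and 3.27 TPM in C57, without overlap, and the difference was −1.27 ± 0.21 (SE, limma, adjusted p = 1.4e-04). Here the gap lay in the LPS level.

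Both subunits of interleukin 12, which drives interferon-gamma from lymphocytes, behaved alike in sign. Il12a rose from 0.402 ± 0.235 to 17 ± 2.39 TPM in B6 and from 0.198 ± 0.0859 to 5.91 ± 1.15 TPM in C57, a difference of −1.17 ± 0.20 (SE, limma, adjusted p = 2.4e-04). Il12b (chr11:44400063-44414033, plus strand), the shared p40 subunit, stood after LPS at 278, 149, 340.1 and 392 TPM in B6 and 205, 189, 233 and 291 TPM in C57, which overlap, with a difference of −1.0 ± 0.33 (SE, limma, adjusted p = 0.0434). The Il12b call was lost with quantile normalization (adjusted p = 0.0831) and in 11 of the 16 fits that left out 1 library, where the adjusted p reached 0.0945.

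**Figure D3:**
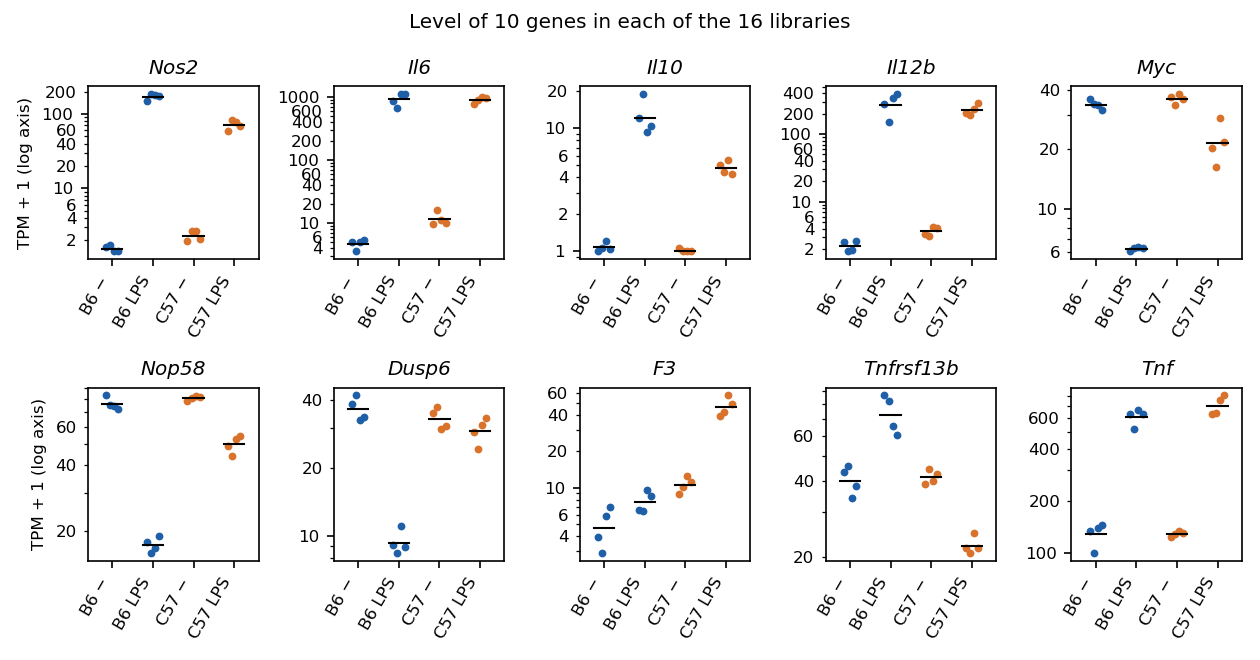
Level of 10 genes in each of the 16 libraries, as TPM + 1 on a log axis, with B6 in blue, C57 in orange, 1 point per library and a black line at the mean of the log values of each group. Il10 parts between strains after LPS, Il6 before it, and Nos2 in both states with opposite signs. Myc and Nop58 fall further in B6, Tnfrsf13b moves in opposite directions, and Tnf overlaps.

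Of 27 tested inflammatory cytokine genes, 8 were called lower in the difference and 3 higher, against 3.39% and 10.9% of all genes, and their median was −0.26 beside 0.12 for all genes. The lower ones were Il6, Il10, Il12a, Il12b, Il1a, Il18, Il33 and Ebi3. All 8 were stable, as were 427 of the 449 lower calls of all genes. The higher ones were Csf2, Csf3 and Tgfb1. With median-of-ratios scaling 16 were lower and 2 higher, and with quantile normalization 13 and 4. In the mice numbered 1 and 2 alone the counts were 4 lower and 1 higher, and in those numbered 3 and 4 they were 9 and 4. Il1b, the gene of interleukin 1 beta, had a difference of −0.46 (adjusted p = 0.0916) and was not called, but it was called with the mouse as a block (adjusted p = 0.0404) and with median-of-ratios scaling (adjusted p = 0.00347), and without library 2 of B6 with LPS or library 1 of untreated C57. Tnf (chr17:35199381-35202007, minus strand), the gene of tumour necrosis factor, stood after LPS at 629.6, 518, 669 and 631 TPM in B6 and 635, 638, 758 and 808 TPM in C57. Its difference was 0.20 (adjusted p = 0.455), and it was called only with quantile normalization, at 0.50 (adjusted p = 0.00847), and in the mice numbered 3 and 4.

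Single genes outside the cytokines also rose less in C57. Cfb, complement factor B, rose from 19.7 ± 7.83 to 384 ± 65.7 TPM in B6 and from 44.6 ± 2.54 to 298 ± 55.5 TPM in C57, a difference of −1.59 (adjusted p = 6.6e-04). Its LPS levels overlapped between strains. The C57 minus B6 level of Cfb was 1.22 before LPS (limma, adjusted p = 5.7e-05) and −0.37 after it (adjusted p = 0.124), so most of the gap lay in the untreated cells. Saa3, a serum amyloid A gene, reached 682, 953, 643 and 680.2 TPM in B6 and 174, 175, 183 and 219 TPM in C57 after LPS, which do not overlap, with a difference of −1.46 (adjusted p = 0.00127). Vcam1, an adhesion molecule for leukocytes, had a difference of −1.45 (adjusted p = 8.8e-05) and reached 21.3 ± 5.37 TPM in B6 and 5.17 ± 0.472 TPM in C57. Ptgs2, the inducible cyclooxygenase, had −0.68 (adjusted p = 0.0383), and that call was lost with the mouse as a block (adjusted p = 0.0992), with quantile normalization and in 10 of the 16 fits without 1 library.

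In the list of enzymes for nitric oxide, prostaglandin and related mediators, 5 of 21 tested genes were called lower and 5 higher. The lower ones were Nos2, Hdc, Ptgs2, Ptges and Slc7a2, the last an arginine carrier. The higher ones were Ptgs1, Tbxas1, Alox5, Alox5ap and Lta4h, which make prostaglandin H2, thromboxane and leukotrienes. Ptgs1 had a difference of 1.07 (adjusted p = 0.00149) with responses of −2.71 in B6 and −1.65 in C57, and Tbxas1 had 0.87 (adjusted p = 0.00103) with −1.82 and −0.95.

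Among genes whose rise was called in B6 alone, Rgs1, Batf and Irf8 had clear levels. Rgs1, a regulator of G protein signalling that limits chemokine signalling, stood in B6 at 62.2, 55.9, 47.5 and 57.5 TPM untreated and 188, 162, 220.3 and 233 TPM with LPS. In C57 it stood at 71.9, 80.9, 85.3 and 72.8 TPM and 83.3, 100.2, 88 and 86.6 TPM. The difference was −1.62 ± 0.18 (SE, limma, adjusted p = 2.0e-06). Batf, an AP-1 family factor of leukocytes, rose from 11.7 ± 1.37 to 31.1 ± 2.24 TPM in B6 and stood at 20.6 ± 2.31 and 20.6 ± 3.4 TPM in C57, a difference of −1.34 ± 0.15 (SE, limma, adjusted p = 1.9e-06). Irf8 (chr8:120736358-120756694, plus strand), a factor needed for one lineage of conventional dendritic cells, rose from 42.4 ± 5.58 to 87.8 ± 6.1 TPM in B6 and stood at 31.4 ± 3.11 and 34.4 ± 1.41 TPM in C57, a difference of −0.91 ± 0.14 (SE, limma, adjusted p = 7.3e-05). Under median-of-ratios scaling the C57 rises of Rgs1, Batf and Irf8 were called too, and the genes became smaller rises. Snn with −1.57, Acp5, a phosphatase of osteoclasts and macrophages, with −1.09, and Csf3r, the receptor of G-CSF, with −1.06 were also called as rises in B6 alone with TPM. Of these 3, Acp5 became a smaller rise under median-of-ratios scaling, and Csf3r was called in opposite directions with the mouse as a block. Olfr56 had the largest difference of that class, −2.79 (adjusted p = 2.9e-11), from 1.61 ± 0.473 to 19.6 ± 2.23 TPM in B6 against under 1 TPM in every C57 library, and since its long gene model overlaps other genes, its reads may not be its own.

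The list of dendritic cell maturation genes, which serve costimulation and adhesion, had 5 of 25 tested members called lower and 0 higher with a median of −0.32. They were Cd83, Cd200, Icosl, Icam1 and Slamf1. With the mouse as a block 10 were lower, with median-of-ratios scaling 18 and with quantile normalization 7, and 0 were higher in these fits. Cd83, a surface marker of mature dendritic cells, rose from 67.8, 48.9, 48.1 and 72.2 TPM to 211, 156, 203 and 208 TPM in B6. In C57 it rose from 23.2, 27.3, 19.7 and 21.5 TPM to 39.4, 48.1, 39.5 and 39.2 TPM, so that the C57 levels with LPS lay at the bottom of the untreated B6 range or under it. Its difference was −0.88 ± 0.22 (SE, limma, adjusted p = 0.00702), on top of an untreated gap of −1.32. Cd200 had a difference of −1.10 (adjusted p = 1.5e-04) and Icam1, the adhesion molecule bound by LFA-1, of −0.66 (adjusted p = 0.00774).

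Levels of cell type markers also differed between the strains before LPS, and their part in the result was not tested. The summed TPM of the maturation list ran from 5824 to 7286 in untreated B6 and from 2455 to 3583 in untreated C57, and with LPS from 16846 to 19497 and from 5271 to 5891. The 17 conventional dendritic cell markers summed to between 5806 and 7684 TPM in untreated B6 and between 2698 and 3243 in untreated C57, and the 20 macrophage and monocyte markers to between 8772 and 10319 and between 12822 and 14220. Neither sum rose with LPS as the maturation list did. With LPS the dendritic cell markers summed to 5820 to 7086 TPM in B6 and 2227 to 2619 in C57. The macrophage markers summed to 5612 to 7240 and 7613 to 10648. Flt3 and Xcr1 of the dendritic cell markers and Cx3cr1 and Cd163 of the macrophage markers were under the filter on low values. In the difference itself, the dendritic cell markers had 2 of 15 tested members called higher, Cd24a and Naaa, and Irf8 lower. The macrophage markers had 3 of 18 called higher, among them Csf1r and Ccr2, and Vcam1 lower. Neutrophil markers summed to 2493 to 2811 TPM in untreated B6 and 3463 to 5514 in untreated C57, with 1 of 20 called higher (Cxcr2) and 2 lower (Csf3r, and Lcn2 with a call lost in 12 of the 16 fits without 1 library). Mast cell, basophil and eosinophil markers summed to at most 81.3 TPM in any library and had 0 of 11 called by limma. B, T and plasmacytoid markers had 0 of 6 called, and 11 of their 17 members were under the filter on low values. Stromal and endothelial markers summed to at most 57.3 TPM, with Lepr higher and Kdr lower. With median-of-ratios scaling the dendritic cell markers had 2 higher and 3 lower, the macrophage markers 4 and 5, the neutrophil markers 1 and 3, and the stromal and endothelial markers 0 and 2.

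MHC class I genes, which show peptides to CD8 T cells, rose in both strains, 20 of 22 in B6 and 18 in C57. In the difference 3 were called lower and 0 higher, H2-T22, Tapbpl and Psme1, and the median was −0.34. With the mouse as a block 5 were lower, and with median-of-ratios scaling 17. H2-T22 has close paralogs with which its reads may be shared. Without 1 library the call of Psme1 was lost in 13 of 16 fits, that of H2-T22 in 4 (B6 with LPS 3, B6 untreated 2, C57 with LPS 1 or C57 untreated 2) and that of Tapbpl in 1 (B6 with LPS 3). MHC class II genes had 1 of 16 called, Rfxap, a subunit of the factor that switches on the class, higher by 0.70 (adjusted p = 0.0348), a call lost in 7 of the 16 fits and with median-of-ratios scaling, where 3 others were lower and 0 higher. Chemokines had 4 of 25 called lower and 0 higher, and 9 lower and 0 higher under median-of-ratios scaling. Cxcl2, which draws neutrophils, rose from 153 ± 11.7 to 1666 ± 168 TPM in B6 and from 202 ± 22.1 to 1523 ± 86.8 TPM in C57, a difference of −0.53 (adjusted p = 0.00312). Cxcl11 had −0.86 (adjusted p = 0.0031) and Ccl9 −0.52 (adjusted p = 0.00795). Cxcl9 had −1.17 (adjusted p = 0.0114), but its responses overlapped between strains and the call was lost with the mouse as a block (adjusted p = 0.068).

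Interferon-stimulated genes rose in nearly every case, 42 of 44 in B6 and 43 in C57, and their difference was small. Only Slfn1 and Ifit1 were called higher and Irf7 lower, with a median of 0.04. This list depended on the scaling and on the mice, with 3 higher and 3 lower with the mouse as a block, 10 higher and 0 lower under quantile normalization, 1 higher and 9 lower under median-of-ratios scaling, and 13 higher in the mice numbered 3 and 4 alone against 1 in those numbered 1 and 2. The call of Ifit1 was lost in 11 of the 16 fits without 1 library. Irf7, the factor that amplifies type I interferon, reached 404 ± 19.2 TPM in B6 and 219 ± 17.1 TPM in C57, a difference of −0.62 (adjusted p = 0.0144). Ifnb1, the gene of interferon beta itself, had 0.36 (adjusted p = 0.496) and was not called. Guanylate-binding proteins and immunity-related GTPases had 1 of 17 called higher (Irgm2) and 1 lower (Gbp8), both of families whose members share reads, and 1 higher and 5 lower under median-of-ratios scaling.

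Few genes on the receptor side were called with TPM. Of 29 genes for LPS recognition and signalling, 2 were called lower, Ticam2, an adaptor between TLR4 and TRIF, with −0.56 (adjusted p = 0.0305) and Ikbkb, a kinase of the NF-kB pathway, with −0.54 (adjusted p = 0.0141), and 0 higher. With median-of-ratios scaling 9 of the 29 were lower and 0 higher, and with quantile normalization 3 were lower and 4 higher. Tlr4 stood at 97.4 ± 16.7 and 53.6 ± 6.44 TPM in B6 without and with LPS, and at 133 ± 7.79 and 92.9 ± 6.16 TPM in C57, a difference of 0.33 (adjusted p = 0.132). Cd14 rose from 193 ± 12 to 448 ± 37.5 and from 229 ± 25.9 to 601 ± 57.9 TPM, a difference of 0.18 (adjusted p = 0.434). Of 31 genes listed as brakes on this signalling, 4 were lower, Tnfaip3, Nfkbib, Nfkbiz and Dusp2, and 5 higher, Trib1, Bcl6, Pdlim2, Rnf128 and Tnip2. Being on that list does not mean that a gene acts only as a brake, and the counts do not measure braking. With median-of-ratios scaling 10 of the listed genes were lower and 4 higher. Inflammasome and cell death genes had 4 of 29 lower and 1 higher, which became 15 and 2 with median-of-ratios scaling and 7 and 2 with quantile normalization. Casp4, the caspase that senses LPS inside the cell, reached 136, 140.1, 135 and 129 TPM in B6 and 82.5, 78.3, 92.9 and 87.4 TPM in C57 from like untreated levels, without overlap, a difference of −0.70 ± 0.14 (SE, limma, adjusted p = 0.00172). Mlkl, the executioner of necroptosis, had −0.85 (adjusted p = 3.0e-04), and Casp1 −0.48 (adjusted p = 0.0305). Without 1 library the calls of Casp1, Ticam2, Rnf128 and Pdlim2 were lost in 8, 6, 4 and 3 of the 16 fits, in this order, and Tlr4 was called when untreated B6 library 3 was left out.

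**Figure D4:**
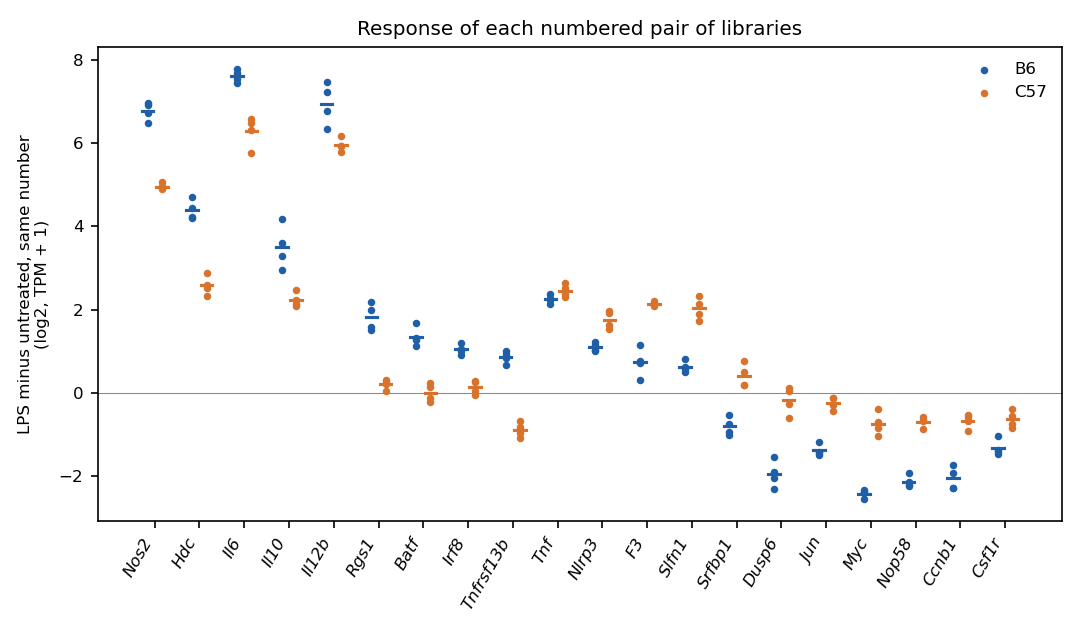
LPS response of 20 genes (horizontal axis) in each mouse, as LPS minus untreated log2(TPM + 1) of libraries with the same number (vertical axis), with B6 in blue, C57 in orange, 1 point per mouse and a bar at the mean of 4. The strains do not overlap for the genes shown other than Tnf, and Tnfrsf13b and Srfbp1 lie on opposite sides of zero. Lack of overlap was a condition for the genes named by class.

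The most uniform group in the difference was ribosome biogenesis, the making and processing of ribosomal RNA in the nucleolus. Of its 30 genes, 28 were called higher and 0 lower, beside 10.9% and 3.39% of all genes, and 26 of the 28 were stable. The median difference was 0.97 with TPM, 0.82 with median-of-ratios scaling and 0.72 with quantile normalization. All 30 fell in B6 with a median of −1.46, and 27 fell in C57 with a median of −0.59. In the mice numbered 1 and 2 alone 17 were called higher and in those numbered 3 and 4 alone 28. The summed TPM of the list was 1117 to 1318 in untreated B6 and 1253 to 1322 in untreated C57. After LPS it was 485 to 518 in B6 and 826 to 974 in C57, without overlap.

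Single genes of that group had like untreated levels. Nop58 (chr1:59684971-59719044, plus strand), a core protein of the particles that methylate ribosomal RNA, stood in B6 at 82.5, 74.2, 73.8 and 71 TPM untreated and at 16.9, 14.9, 15.8 and 17.9 TPM with LPS. In C57 it stood at 77.6, 79.96, 82.2 and 80.8 TPM and 47.8, 43.1, 51.5 and 53.5 TPM. The C57 libraries with LPS lay between the untreated libraries and the B6 libraries with LPS, and the difference was 1.44 ± 0.12 (SE, limma, adjusted p = 5.2e-08). Its partner Nop56 had 1.26 ± 0.17 (SE, limma, adjusted p = 1.1e-05), Gar1 of the pseudouridine-forming particles 1.41 ± 0.17 (SE, limma, adjusted p = 4.8e-06), and Nolc1, a nucleolar chaperone, 1.29 ± 0.15 (SE, limma, adjusted p = 3.3e-06). Outside the list, Wdr75 and Rrp15, also of the nucleolus, had 1.51 (adjusted p = 1.9e-06) and 1.46 (adjusted p = 4.2e-07). Wdr75, Rrp15, Gar1 and Nolc1 still fell in B6 with median-of-ratios scaling, but their C57 falls were then not called.

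Myc (chr15:61985391-61990374, plus strand), a factor known to drive ribosome biogenesis and growth, had the largest difference among the genes named as smaller falls. In untreated B6 cells Myc stood at 34.9, 32.9, 32.6 and 30.6 TPM, and after LPS at 5.05, 5.33, 5.38 and 5.28 TPM. In C57 the values were 35.9, 32.4, 37.3 and 34.9 TPM without LPS and 19.4, 15.3, 27.9 and 20.9 TPM with it. The B6 libraries with LPS stayed within a narrow range and the C57 ones spread more widely, without overlap. The response was −2.43 in B6 and −0.75 in C57, a difference of 1.68 ± 0.16 (SE, limma, adjusted p = 2.1e-07). It was 1.54 with median-of-ratios scaling and ran from 1.53 to 1.81 when each library was left out in turn.

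Since MYC binds the E-box CACGTG and these genes moved together, the promoters were searched for it on both strands, in RefSeq sequence of GRCm38.p6 from 250 bases before to 50 after each gene start. It was present for 4 of 24 ribosome biogenesis genes with a promoter in the table (16.7%), beside 1117 of 9419 among all tested genes (11.9%), 15.0% of those called higher in the difference and 11.4% of those not called. A match is a description of the letters and not of binding. The promoters below, with the E-box in capitals, belong to Nop2 (chr6:125131633-125131932, plus strand, match at −60 from the gene start) and Utp4 (chr8:106893390-106893689, plus strand), which are called members of the list with a match. Nop2 had a difference of 1.22 and Utp4 of 1.00.
Nop2: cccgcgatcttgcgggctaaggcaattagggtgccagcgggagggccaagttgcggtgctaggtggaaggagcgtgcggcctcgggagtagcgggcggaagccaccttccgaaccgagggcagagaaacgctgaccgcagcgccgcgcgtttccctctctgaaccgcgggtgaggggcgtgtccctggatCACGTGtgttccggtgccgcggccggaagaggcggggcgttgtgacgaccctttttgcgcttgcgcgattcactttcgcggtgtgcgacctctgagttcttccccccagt
Utp4: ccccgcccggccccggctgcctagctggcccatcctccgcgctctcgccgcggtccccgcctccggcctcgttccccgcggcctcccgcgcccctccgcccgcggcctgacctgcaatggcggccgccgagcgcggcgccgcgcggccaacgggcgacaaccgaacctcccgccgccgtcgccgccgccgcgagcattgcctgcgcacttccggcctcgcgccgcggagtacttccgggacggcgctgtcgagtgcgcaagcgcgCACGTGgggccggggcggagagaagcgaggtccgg

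The same search for the NF-kB consensus found it for 13 of 37 cytokine and chemokine genes (35.1%), 22 of 147 called smaller rises (15.0%) and 1151 of 9419 genes (12.2%). Of the 22 named smaller rises with a promoter in the table, 5 held a match. The promoter of Il6 (chr5:30012864-30013163, plus strand) has 1 match, at −44 from the gene start, and that of Casp4 (chr9:5308599-5308898, plus strand) has 3, some of them overlapping. They are shown because their genes stand on the 2 sides described above, Il6 with its gap before LPS and Casp4 with its gap after it, and capitals mark the matches.
Il6: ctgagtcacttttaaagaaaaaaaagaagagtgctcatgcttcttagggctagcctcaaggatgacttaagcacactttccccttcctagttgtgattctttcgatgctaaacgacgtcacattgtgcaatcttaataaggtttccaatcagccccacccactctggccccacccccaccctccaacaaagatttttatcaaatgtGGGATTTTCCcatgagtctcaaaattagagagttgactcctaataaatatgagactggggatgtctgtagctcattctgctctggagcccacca
Casp4: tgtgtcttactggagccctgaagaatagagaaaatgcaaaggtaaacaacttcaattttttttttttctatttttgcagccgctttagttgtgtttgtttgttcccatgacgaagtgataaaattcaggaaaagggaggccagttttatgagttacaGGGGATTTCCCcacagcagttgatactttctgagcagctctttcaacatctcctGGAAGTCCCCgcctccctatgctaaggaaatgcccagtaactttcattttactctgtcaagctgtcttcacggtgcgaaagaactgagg

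A part of the cell cycle genes followed the same course. Of 35 tested, 34 fell with LPS in each strain, and in the difference 19 were called higher and 1 lower (Tyms), with a median of 0.55. Under median-of-ratios scaling 20 were higher and 1 lower, and the counts were 12 higher in the mice numbered 1 and 2 alone and 20 in those numbered 3 and 4. Ccnb1 (chr13:100778650-100786570, minus strand), cyclin B1 of mitosis, stood in B6 at 30.1, 31.1, 22.7 and 31.4 TPM untreated and 7.17, 5.61, 6.12 and 5.56 TPM with LPS, and in C57 at 52.6, 49, 55.3 and 55.4 TPM and 32.3, 25.3, 37.9 and 36.5 TPM. C57 lay above B6 in both states without overlap, and the difference was 1.38 ± 0.17 (SE, limma, adjusted p = 5.6e-06). Plk1, a mitotic kinase, fell from 13.4 ± 1.98 to 2.76 ± 0.419 TPM in B6 and from 22.1 ± 1.5 to 14.4 ± 3.61 TPM in C57, a difference of 1.32 (adjusted p = 2.9e-05). Cdc20, which activates the anaphase-promoting complex, had 1.36 (adjusted p = 4.3e-06) and Bub1b of the spindle checkpoint 1.17 (adjusted p = 1.1e-05). These named genes are mitotic. The DNA replication genes Mcm2 to Mcm7, Pcna, Cdc45 and Cdc6 were not called, with differences from −0.13 to 0.35, while Rrm2 was called higher with 0.59. The list summed to 684 to 869 TPM in untreated B6 and 1220 to 1354 in untreated C57, so the strains differed before LPS, unlike for ribosome biogenesis.

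AP-1 and immediate early genes, the first genes switched on by growth signals, had 15 of 28 called higher and 0 lower, with a median of 0.43, and 10 of the 15 were stable. With median-of-ratios scaling 11 were higher and 2 lower. Dusp6 (chr10:99263231-99267489, plus strand), a phosphatase that is induced by and turns off ERK, was the leading gene among falls called in B6 alone. In untreated B6 cells Dusp6 stood at 37.1, 40.9, 31.7 and 32.6 TPM, and after LPS at 8.16, 7.42, 10.1 and 7.95 TPM. In C57 the values were 33.9, 36.2, 28.8 and 29.8 TPM without LPS and 27.8, 23.3, 29.9 and 32.4 TPM with it. Only the B6 libraries with LPS stood apart, and the difference was 1.78 ± 0.17 (SE, limma, adjusted p = 3.4e-07). Jun (chr4:95049034-95052222, minus strand), a subunit of AP-1, had 14.6, 15.9, 14.8 and 14.8 TPM in B6 with LPS against 38.9, 40.9, 49.6 and 46.6 TPM in C57, from 40.9 ± 2.44 and 52.3 ± 3.76 TPM untreated, a difference of 1.14 ± 0.12 (SE, limma, adjusted p = 4.3e-07). Egr2, a zinc finger factor of the same kind, had 0.93 (adjusted p = 8.3e-05). Fosl1, Nr4a1, Egr1, Klf2, Btg2, Spry2, Spred1, Fosl2, Egr3, Maff and Mafk were the remaining members called higher, beside Myc.

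Other falls called in B6 alone included Nedd9, a scaffold of cell adhesion signalling, with 1.47 (adjusted p = 2.5e-05), Pinx1, a nucleolar inhibitor of telomerase, with 1.34 (adjusted p = 1.9e-05), Cldn1, a tight junction protein, with 1.30 (adjusted p = 2.0e-04), and Plet1 with 1.18 (adjusted p = 1.8e-04). Slc20a1, a phosphate carrier, stood in B6 at 65.7, 63.6, 62.5 and 63.8 TPM and fell to 31, 29.9, 35 and 27.8 TPM, and in C57 it stood at 81.8, 92.8, 84.2 and 90.9 TPM and 84.2, 86.8, 104 and 103 TPM. Its difference was 1.14 ± 0.14 (SE, limma, adjusted p = 4.3e-06). With median-of-ratios scaling Nedd9, Pinx1, Plet1, Slc20a1 and Egr2 were called higher with LPS in C57 and lower in B6. Pald1 and B3gnt7 fell in both strains and had differences of 1.62 and 1.55. Pald1 dropped from 23.2 ± 0.999 to 0.935 ± 0.123 TPM in B6 and from 26.7 ± 1.54 to 5.8 ± 0.649 TPM in C57.

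Some receptors of macrophages fell less in C57, among them Csf1r and Ccr2. Csf1r, the receptor of M-CSF, stood with LPS at 134, 132, 129.8 and 112 TPM in B6 and 168, 154, 209 and 203 TPM in C57, from 323 ± 40.3 and 284 ± 12.2 TPM, a difference of 0.69 (adjusted p = 0.0032). Ccr2, the chemokine receptor of monocytes, had 0.70 (adjusted p = 0.00484). In the list of scavenger, lectin and Fc receptors 10 of 28 were called higher and 1 lower (Scarb2), with a median of 0.38, and with median-of-ratios scaling 8 were higher and 8 lower. Clec4a2 had 0.81 (adjusted p = 9.4e-04), Scarb1, a receptor of HDL, 0.77 (adjusted p = 0.00101), and Trem1, an amplifier of inflammation, 0.74 (adjusted p = 0.00304). C5ar1, the receptor of complement C5a, had 1.24 (adjusted p = 1.9e-06) and Plau, urokinase, 1.05 (adjusted p = 1.4e-04).

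In lipid metabolism the LXR and lipid handling list had 6 of 24 called higher and 3 lower. Scd2 and Fasn, which make fatty acids, were higher with 0.98 (adjusted p = 7.1e-05) and 0.78 (adjusted p = 3.9e-04). Ch25h, which makes 25-hydroxycholesterol, rose from 14.4 ± 3.16 to 148 ± 34.7 TPM in B6 and from 64.6 ± 7.32 to 363 ± 29.1 TPM in C57. Its C57 level was the higher one in both states although its rise was smaller, by −0.80 (adjusted p = 0.0066). Cholesterol synthesis had 1 of 23 higher (Mvd) and 2 lower (Pmvk and Idi1). Of the genes against oxidative stress, 4 of 26 were higher and 3 lower, and Gclc, the rate-limiting enzyme of glutathione synthesis, had 1.06 (adjusted p = 1.1e-05). Glycolysis and hypoxia genes had 4 of 30 higher and 2 lower, among them Slc2a1, the glucose carrier GLUT1, with 0.65 (adjusted p = 0.00583) and Ndrg1 with −1.01 (adjusted p = 3.3e-05). Genes induced by IL-10 and IL-4 had 5 of 24 higher and 1 lower, the lower one Stat3, but 4 higher and 6 lower under median-of-ratios scaling. Among the higher ones the calls of Il1r2 and Pparg were lost in 12 and 11 of the 16 fits without 1 library, and Clec10a led with 1.11 (adjusted p = 3.7e-04). Matrix genes had 1 of 23 higher (Mmp19) and 3 lower (Timp1, Mmp2 and Mmp13), with 5 lower with the mouse as a block and 0 higher and 10 lower under median-of-ratios scaling, and Timp1, an inhibitor of metalloproteinases, had −1.01 (adjusted p = 0.00986). The call of Mmp13 was lost without untreated C57 library 3, and that of Mmp19 in 4 of the 16 fits. Complement and coagulation genes had 4 of 25 higher and 3 lower, with the mouse as a block 5 and 6, and with median-of-ratios scaling 3 and 8. That scaling also moved the LXR list to 5 higher and 7 lower, the glycolysis and hypoxia list to 3 and 6, the oxidative stress list to 4 and 5 and the cholesterol list to 2 and 3. Over all 13246 genes it gave 1400 higher and 1979 lower, so a turn toward lower calls was not particular to these lists.

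Nuclear genes of oxidative phosphorylation had 0 of 32 called by limma with a median of 0.01, and genes of the unfolded protein response 0 of 25 with a median of −0.05. Under median-of-ratios scaling 13 and 9 of them were called lower, and 0 higher. Atp5b of the ATP synthase had 0.04 (adjusted p = 0.888) and Hspa5, the chaperone BiP, −0.19 (adjusted p = 0.483).

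**Figure D5:**
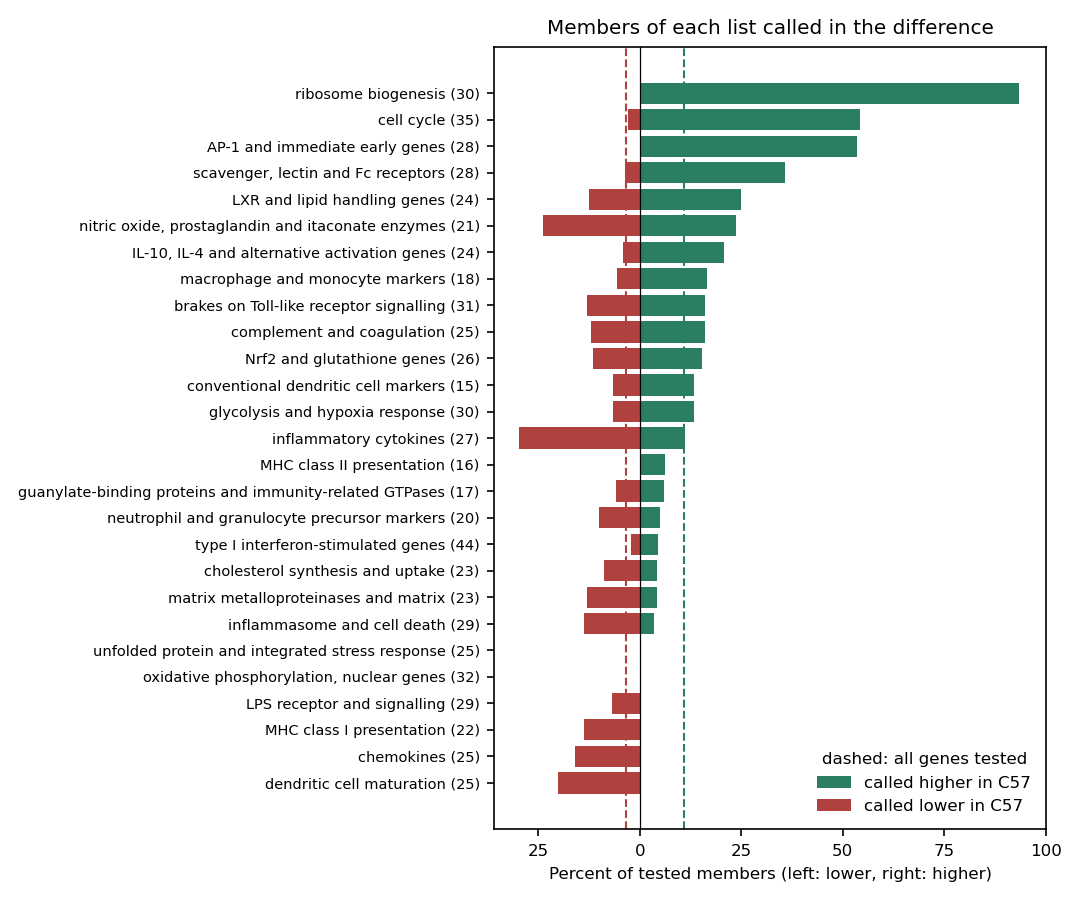
Percent of tested members of each gene list (number in brackets) called higher in the C57 minus B6 difference (right) or lower (left), with dashed lines at the shares of all genes tested, 10.9% and 3.39%. Ribosome biogenesis reaches 28 of 30 on the right, while dendritic cell maturation, chemokines and MHC class I have bars on the left alone.

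Larger rises in C57 were few. F3 (chr3:121723537-121735048, plus strand), tissue factor, which starts coagulation, stood in B6 at 2.93, 1.91, 4.81 and 5.89 TPM untreated and 5.62, 5.41, 8.54 and 7.49 TPM with LPS, and in C57 at 7.82, 9.07, 11.6 and 10.2 TPM and 37.7, 41.4, 56.8 and 48.4 TPM. The difference was 1.41 ± 0.29 (SE, limma, adjusted p = 0.00186). Slfn1, a schlafen family gene, rose from 73.7 ± 8.91 to 114 ± 8.47 TPM in B6 and from 9.77 ± 1.86 to 42.6 ± 4.28 TPM in C57, a difference of 1.40 (adjusted p = 8.6e-06). It lies in a cluster of like genes, and even with LPS its C57 level stayed under the untreated B6 level. Tnfsf8, the CD30 ligand, had 1.04 (adjusted p = 1.9e-04), Phlda1 0.87 (adjusted p = 4.4e-05), Mier3 0.82 (adjusted p = 0.00867), and Ereg, the growth factor epiregulin, 0.97 (adjusted p = 0.00103). Ereg rose from 0.269 ± 0.0639 to 3.71 ± 1.25 TPM in B6 and from 0.614 ± 0.0843 to 10.5 ± 1.4 TPM in C57. With a pseudocount of 0.1 TPM its difference was 0.56 and was not called (limma, adjusted p = 0.204). Nlrp3 (chr11:59541568-59566956, plus strand), the sensor of the inflammasome, rose from 60.2, 56.3, 62 and 62 TPM to 123, 125, 145 and 125 TPM in B6 and from 48.6, 54.9, 55.4 and 50.6 TPM to 152, 161, 219 and 192 TPM in C57, a difference of 0.67 ± 0.14 (SE, limma, adjusted p = 0.00169). Csf2, the gene of GM-CSF, was singled out after its values were seen. After LPS it stood at 0.241, 0.42, 0.242 and 0.43 TPM in B6 and 2.99, 2.97, 4.79 and 4.32 TPM in C57, and every untreated library was under 1 TPM, with a difference of 1.72 (adjusted p = 1.1e-05). Bcl6, a repressor, was called as a rise in C57 alone with 0.71 (adjusted p = 0.00204).

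Of the genes called in opposite directions, Tnfrsf13b (chr11:61126755-61149372, plus strand), the receptor TACI for BAFF and APRIL, had the largest difference among those chosen by the rule for named genes, which leaves out pseudogenes. In untreated B6 cells Tnfrsf13b stood at 42, 44.7, 33.1 and 37 TPM, and after LPS at 85.3, 80.7, 64.3 and 59.2 TPM. In C57 the values were 37.8, 43.5, 38.8 and 41.5 TPM without LPS and 20.8, 19.8, 23.9 and 20.7 TPM with it. It rose in 4 of 4 B6 mice, by 0.66 to 1.00, and fell in 4 of 4 C57 mice, by −1.09 to −0.67, and the difference was −1.76 ± 0.17 (SE, limma, adjusted p = 3.6e-07). The reverse was called for Srfbp1, a partner of the serum response factor, which went from 8.94 ± 1.36 to 4.63 ± 0.465 TPM in B6 and from 8.69 ± 0.229 to 12 ± 2.69 TPM in C57, a difference of 1.22 ± 0.17 (SE, limma, adjusted p = 3.5e-05). Both genes and Polr3d, a subunit of RNA polymerase III, with 1.04 (adjusted p = 7.7e-05), kept opposite directions with median-of-ratios scaling. Lrrc75a, not chosen by the rule for named genes, had a larger difference than Tnfrsf13b, −2.11, with responses of 0.53 in B6 and −1.58 in C57. It also kept opposite directions with median-of-ratios scaling (0.96 and −1.32).

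For the others of this kind chosen by that rule, one of the directions was lost with that scaling while the difference stayed called. Sco1 with −1.30, Net1 with −1.12, Csrp1 with −1.10, Glipr2 with −0.91, Idi1 with −0.88 and Nr1h3, the receptor LXR alpha, with −0.79 then rose in B6 alone. Tnfaip8l3 with 1.21, Pdgfb, a platelet-derived growth factor, with 0.97, Luc7l3 with 0.82 and Tshz1 with 0.80 then rose in C57 alone. Fosl1 and Btg2, counted above with the immediate early genes, were also called in opposite directions with TPM, higher with LPS in C57, and did not keep both directions with that scaling. Pdgfb stood in B6 at 18.6, 14, 15.4 and 16.1 TPM untreated and 14.2, 11.2, 13.5 and 11.5 TPM with LPS, which overlap by a little, and in C57 at 14.9, 20.2, 16.5 and 15.4 TPM and 20.7, 24.5, 35.8 and 27.4 TPM, which do not.

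Larger falls in C57 were the smallest class. Ttc7 stood in B6 at 15.5, 16.1, 13 and 15.8 TPM untreated and 9.8, 9.52, 9.55 and 9.996 TPM with LPS, and in C57 at 23.3, 20.4, 22.7 and 21.5 TPM and 7.07, 7.74, 9.85 and 8.79 TPM. C57 began higher, the levels with LPS overlapped, and the difference was −0.72 ± 0.15 (SE, limma, adjusted p = 0.00196). The B6 response was −0.06 with median-of-ratios scaling and −0.07 with quantile normalization. In both settings Ttc7 became a fall called in C57 alone.

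Where the gap lay differed between the classes. In the 977 smaller falls the C57 level after LPS was called higher in 938, with a median gap of 0.89, against a median gap of 0.23 before LPS. In the 196 smaller rises it was called lower after LPS in 158, with a median of −0.69, against 0.02 before LPS. In the 17 larger falls the median gap was 0.90 before LPS and 0.31 after it. These splits share libraries with the difference and are a description.

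The libraries themselves were alike within groups, with correlations of log values of 0.984 to 0.990. Structural RNA took 31.6% to 44.2% of TPM, and among C57 libraries with LPS it was 39.9% and 41.2% in the mice numbered 1 and 2 but 31.6% and 33.4% in those numbered 3 and 4. The change with LPS differed between strains by 2.55 percentage points (exact permutation test over 70 splits, two-sided p = 0.543, smallest possible 0.0286). Mice numbered 1 and 2 had at most 0.0901 TPM of Xist and mice numbered 3 and 4 had 41.9 to 65.4 TPM. The former alone gave 725 calls, 473 higher and 252 lower, and the latter 1719, 1434 higher and 285 lower. A test of whether the difference itself changed between these pairs of mice called 2 of the 13246 genes and 0 of the 110 examined for this text. That test split each group between the pairs and so had less power, and its few calls do not show that the pairs agreed. The 3 called symbols with an absolute difference over 3, the pseudogenes Gm11518 and Rpl27-ps3 and the small nuclear RNA model Gm24497, were listed at 0 in 6, 10 and 4 of the 16 libraries, and near-identical copies can share their reads. Gm11518 and Rpl27-ps3 were called in opposite directions, also with median-of-ratios scaling.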

How the data were processed

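Bulk RNA-seq of bone marrow-derived dendritic cells was analysed in 16 libraries of 4 groups (B6 and C57, untreated or with LPS), within a series of 24 libraries. The deposited values are TPM, made by the authors. Per the submitters' processing notes mm10, STAR and edgeR were used; versions, roles, the annotation, the counting tool and whether strand was used were not stated. TPM keep no depth, so depth per library is unknown and no counting interval can be given.

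Of 55401 rows, 110 repeated symbols were summed, and a gene was tested if 4 or more libraries held at least 1 TPM (13246). limma 3.58.1 in R 4.3.3 was fitted to log2(TPM + 1) with a mean for each of the 6 groups (24 libraries, leaving 18 residual degrees of freedom), so PWD shares the estimate of spread, with trend and robust empirical Bayes, two-sided. A fold change on this scale understates that of low genes. Coordinates are from GENCODE M21 on mm10 (12977 genes matched by symbol).

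The members and the 30 lists (734 genes, 689 tested) were chosen with earlier results of these data known. Named genes were the 6 of largest absolute difference in each of 8 classes, where some group's mean reached 10 TPM, the same call with the mouse as a block and with median-of-ratios scaling, and no overlap of the 4 responses, leaving out pseudogenes and unnamed models; 10 fixed genes; and at most 4 called members per list. The text names part of these, and members of lists are also named where a count is given.

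Libraries of one strain and number were taken as the same mouse, from the design text. After removing group means, LPS and untreated libraries of 1 mouse correlated at 0.051 to 0.176 in 8 pairs, above 0.1 in 7. In 6 of the 8 pairs the untreated library of the same number was the best match within the strain. For B6 mice 3 and 4 an untreated library of another number correlated better, at 0.138 against 0.051 and 0.151 against 0.106. Where the sources do not say how cultures were split, p-values measure the spread between these samples. On data simulated for the C57 minus B6 difference with 13246 genes, 26.5%, 75.8% and 97.0% of changed genes were recovered at a log2 difference of 0.5, 1 and 2, with 5 false calls. The simulated noise was independent between genes and held no shift shared by a library. These rates therefore do not cover the dependence of the calls on scaling. Alternatives were the block, 3 other scalings, pseudocount 0.1, other filters (none, 5 TPM), plain empirical Bayes, the 16 libraries alone, mice 1 and 2 or 3 and 4 alone, a term for these pairs, an absolute difference of 1, and leaving out each library. List counts under alternatives, the test of the difference between pairs of mice, the genes that keep their class and the promoter search were added after seeing the data.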

Additional observations from a re-analysis of the deposited data

Results flagged for a closer look

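In 28 of 440 groups of 4 libraries (6.36%) of the genes described above, 1 library stood apart from the other 3 by Dixon's gap criterion, which chance alone meets in about 1 of 20 groups. Among the libraries of B6 untreated these were Hdc in library 2 (2.19 TPM, below 3.40 to 3.61), Ccnb1 in library 3 (22.7 TPM, below 30.1 to 31.4), Bub1b in library 1 (18.1 TPM, above 15.4 to 15.5) and Pinx1 in library 1 (13.2 TPM, above 8.63 to 9.37). They also were Ereg in library 4 (0.364 TPM, above 0.225 to 0.247), Csf2 in library 4 (0.103 TPM, above 0) and Nr1h3 in library 2 (2.10 TPM, below 3.52 to 3.70). Among the libraries of B6 with LPS these were Hdc in library 4 (95.5 TPM, above 82.0 to 84.2), Saa3 in library 2 (953 TPM, above 643 to 682), Cd83 in library 2 (156 TPM, below 203 to 211) and Pald1 in library 3 (1.12 TPM, above 0.850 to 0.891). They also were Jun in library 2 (15.9 TPM, above 14.6 to 14.8), Nlrp3 in library 3 (145 TPM, above 123 to 125) and Ifit1 in library 3 (756 TPM, above 608 to 633). Among the libraries of C57 untreated these were Il10 in library 1 (0.0662 TPM, above 0), Irf7 in library 2 (52.8 TPM, above 36.7 to 38.9), Mlkl in library 2 (18.7 TPM, above 16.7 to 16.8) and Gar1 in library 2 (36.9 TPM, below 45.4 to 46.0). They also were Nolc1 in library 3 (24.4 TPM, below 28.9 to 29.7), Plk1 in library 2 (19.9 TPM, below 22.7 to 23.1), Ccr2 in library 1 (224 TPM, above 192 to 194) and Slfn1 in library 2 (12.5 TPM, above 8.59 to 9.15). The remaining ones were Irgm2 in library 2 (25.7 TPM, above 19.5 to 20.3) and Csf2 in library 1 (0 TPM, below 0.125 to 0.144). Among the libraries of C57 with LPS these were Cd83 in library 2 (48.1 TPM, above 39.2 to 39.5), H2-T22 in library 1 (96.7 TPM, below 105 to 107), Scd2 in library 3 (15.4 TPM, above 10.5 to 11.1) and Sco1 in library 4 (6.13 TPM, above 5.26 to 5.40).

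The response to LPS differed between C57 and B6 for 1896 genes in the limma test of the difference itself. Of the genes chosen by the rule for named genes, 13 were called in opposite directions in the strains with TPM as deposited, with differences of Tnfrsf13b (−1.76), Sco1 (−1.30), Net1 (−1.12), Csrp1 (−1.10), Glipr2 (−0.91), Idi1 (−0.88), Srfbp1 (1.22), Tnfaip8l3 (1.21), Polr3d (1.04), Pdgfb (0.97), Luc7l3 (0.82), Tshz1 (0.80) and Nr1h3 (−0.79). With median-of-ratios scaling Tnfrsf13b, Srfbp1 and Polr3d kept opposite directions.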

How the results depend on the processing

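The count of 1896 called genes became 2020 with the mouse as a replicate block (1502 higher, 518 lower), so pairing moved it little. The block ended 2 of the 121 calls among named genes (Ptgs2 and Cxcl9). Genes named by class had been chosen for calls that held with the block and with median-of-ratios scaling. They could not lose the call in these settings. Median-of-ratios scaling gave 3379 genes, or 3665 with the block, with 1979 or 2154 lower. Quantile normalization gave 1243 lower. TPM without structural RNA gave 4376 genes (3642 higher, 734 lower), over 14249 tested genes. Only mice 1 and 2 gave 725 (473 higher, 252 lower), and only mice 3 and 4 gave 285 lower. With an absolute value of 1 or more there were 229 genes (160 higher, 69 lower), 2478 in the B6 response and 1075 in the C57 response. Leaving out 1 library gave 1528 to 2258 genes, with 1066 to 1869 higher and 365 to 483 lower. Among the 121 called named genes the direction stayed in every setting, and 102 kept the call in all 16 fits without 1 library. With the block, median-of-ratios scaling and quantile normalization 105 kept it. For genes named by class only the quantile part of that last count was open. Atp5b, not called with TPM, turned to −0.15 with median-of-ratios scaling and the block (adjusted p = 0.0309). The cause of these changes was not tested. Depth is unknown, and values under 1 TPM carry little weight.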

Other observations

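The share of called differences varied between chromosomes, which is given as a description with no test. On chromosome 11, 185 of 1043 tested genes were called (17.7%), inside the range of 12.1% to 18.1% on the other 19 chromosomes. Among all placed genes the share was 14.2%. Called differences with an absolute value of 1 or more made up 2.97% of its genes (31), against 0.415% to 2.62% elsewhere and 1.73% of all placed genes. They were 6.00% of the genes between 40 and 60 Mb and 5.06% of those between 60 and 80 Mb of chromosome 11, and 0 of 87 between 0 and 20 Mb. Csf2, Olfr56, Tnfrsf13b and Nos2, which are among these differences, lie in these 40 Mb, and Slfn1 just beyond them. Il12b (−0.999) and Nlrp3 (0.665) lie there too, with absolute differences under 1. Before LPS, levels differed between C57 and B6 with an absolute value of 1 or more for 7.38% of chromosome 11 genes, against 1.85% to 4.71% elsewhere, and for 18 of the 150 genes between 40 and 60 Mb and for 27 of the 208 between 80 and 100 Mb.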
